A study of Mus musculus with 6 samples.

Results

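Por encodes NADPH-cytochrome P450 oxidoreductase, a flavoprotein of the endoplasmic reticulum. It passes electrons from NADPH to the microsomal cytochromes P450 and also to heme oxygenase and squalene monooxygenase. In hepatocytes the microsomal P450 enzymes of bile acid synthesis, drug metabolism and fatty acid omega-hydroxylation depend on it. The accessible regions described here are those in a 140 kb window of mouse chromosome 5 (build mm9) that holds Por and its upstream flank. Merging the hotspot lists of all 6 libraries of the series gave 75169 regions, and 24 of them overlapped the window. The regions were selected by position, but the locus itself was chosen by the hotspot calls of 1 site, made in fasted and in no fed livers, so counts and fold changes of that comparison describe the locus and are no independent evidence about it.

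Livers came from C57BL/6 mice, an inbred strain, that were either fasted for 24 h (3 libraries) or fed ad libitum (3 libraries), all under the same light-dark cycle and killed at the hour of lights on. The labels give neither age nor sex, and do not say whether the libraries of a group come from different animals; the p-values therefore measure only the spread between these libraries, which may be technical. Nuclei were digested with DNase I at 40 U/ml. The enzyme cuts DNA where chromatin is open, and a hotspot is a local excess of sequenced ends, as at promoters and enhancers. The files name no genes, so the labelled tissue was not checked against marker genes. All values are the authors' maximum tag density, the highest pile of tags in a hotspot on a scale that the sources used here do not give. A region without a hotspot in a list has an unknown density, not a density of 0.

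The fasted libraries held 49682 to 63476 hotspots and the fed libraries 50990 to 63105. Every density was a whole multiple of a step particular to its library (100% of values within 0.05 step). Taking a step as 1 tag and the scaling as one to the library total, the deepest libraries were fasted replicate 2 (1.90 times the shallowest) and fed replicate 3 (1.64 times), and the shallowest was fed replicate 2. Tag heights below rest on that assumption and their intervals would cover counting error only.

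The regions are named by the distance of their centre from that of the strongest region, which spans 136164066 to 136165465. RefSeq places Por on the plus strand, so negative distances lie on its upstream side. In the gene order of RefSeq (GRCm38.p6, not the build of the hotspots) the protein-coding neighbours are Rhbdd2, which encodes a rhomboid-like membrane protein, before Por, and Tmem120a, which encodes a membrane protein of the nuclear envelope, after it. Which gene each region lies in was not determined here, since no mm9 annotation was used, and a site in the upstream flank may lie in or next to Rhbdd2.

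The 250 bases before the start of Por that RefSeq lists are shown because they are the gene's own promoter (GRCm38.p6, chr5:135688895-135689144, plus strand). Capitals mark GC boxes, the letters GGGCGG read on either strand.
Por promoter: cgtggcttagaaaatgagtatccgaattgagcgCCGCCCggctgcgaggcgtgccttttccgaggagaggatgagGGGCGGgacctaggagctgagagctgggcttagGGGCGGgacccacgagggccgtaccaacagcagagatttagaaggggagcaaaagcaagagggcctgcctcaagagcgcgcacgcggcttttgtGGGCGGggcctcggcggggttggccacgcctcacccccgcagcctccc
It holds 4 GC boxes, and 32.7% of the 32851 RefSeq promoter windows of the same length hold at least 1. Its GC content was 65.6%, against a median of 52.4% over those windows. The letters CCAAT (in 33.8% of windows), TATAAA (12.4%), CACGTG (an E-box, 6.02%), TGACGTCA (the cAMP response element, 1.55%) and GTAAACA (a forkhead motif, 3.17%) had no match on either strand, which says only that these letters are not in this window. This promoter could not be placed among the regions, since the builds differ.

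Of the 24 regions, 12 had a hotspot in all 6 libraries. The share over the whole series was 49.3% of 75169 regions. Of the others, 1 was called in all 3 fasted and no fed libraries, 6 were called in 2 to 5 libraries, and 5 were called in a single library. No region was called in all 3 fed and no fasted libraries, a pattern found at 1.57% of all regions and its reverse at 1.17%. All 3 fasted libraries called 16 of the 24 regions (56.0% of all regions in the series) and all 3 fed libraries called 12 (55.7%). The window held 17, 22 and 16 hotspots in fasted replicates 1 to 3, and 15, 13 and 18 in fed replicates 1 to 3. Neither group's count stood clear of the other.

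**Figure D1:**
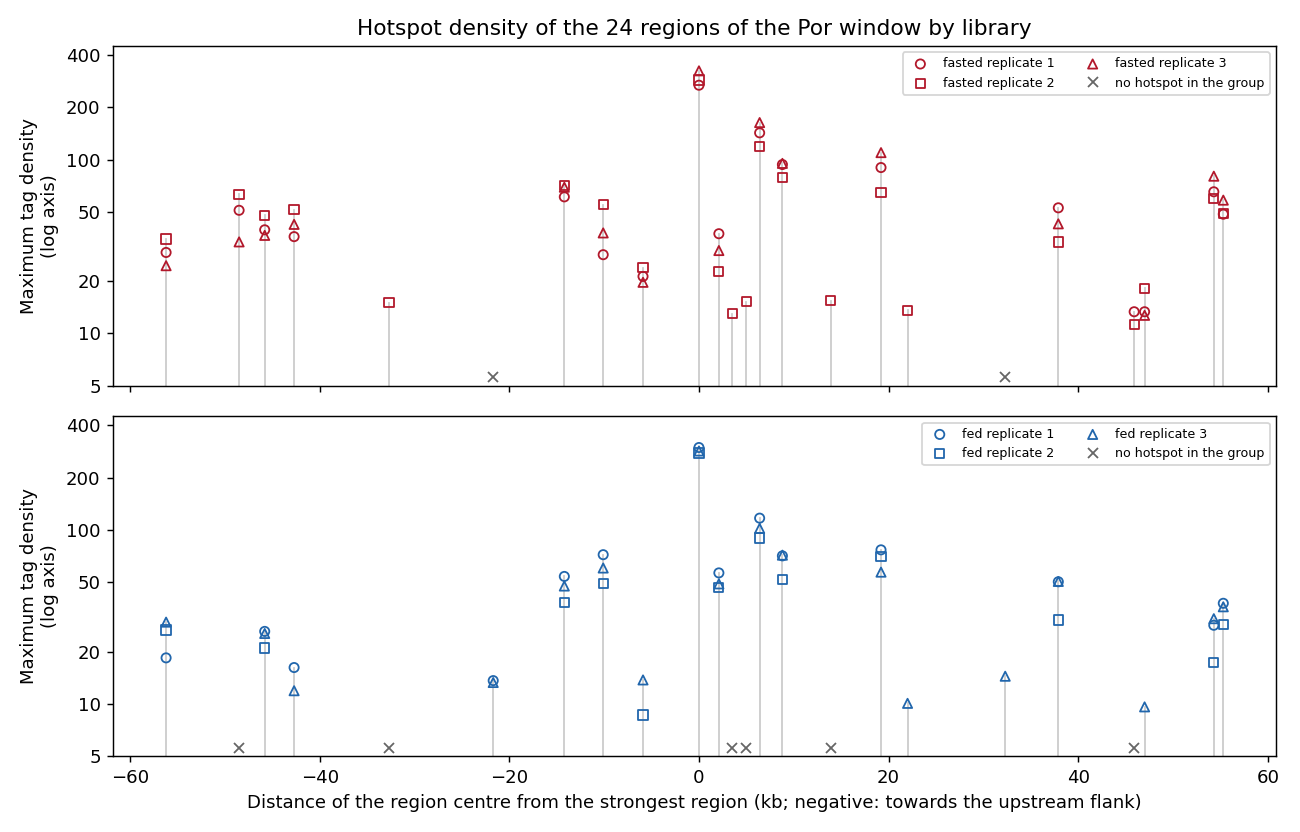
Maximum tag density (log axis) of each of the 24 regions against the distance of its centre from the strongest region in kb, with fasted libraries above and fed libraries below; each symbol is 1 library, and a cross marks a region with no hotspot in that group. The region at 0.0 kb reaches 267.5 to 323.6 in fasted and 276.9 to 297.9 in fed libraries, and the region at -48.5 kb has symbols in the fasted panel only.

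The strongest region of the locus, at 0.0 kb, showed no detected difference between fasted and fed livers. In bulk liver, a change in the share of cells with an open site and a change in how open it is per cell cannot be told apart. Its density was 267.5, 286.3 and 323.6 in fasted replicates 1 to 3, and 297.9, 276.9 and 284.5 in fed replicates 1 to 3. The fed values lay inside the range of the fasted ones. The means were 292 ± 28.5 in fasted and 286 ± 10.6 in fed livers (SD, n = 3 each). The log2 fold change, fasted minus fed, was 0.10 (95% interval -0.10 to 0.29), and it turned to -0.08 with quantile normalization. Fold changes here come from limma on log2(density + 1), with the libraries brought to a common median over the 37044 regions called in all 6. This region ranked 18th of those 37044 by mean density. It took 28.0%, 31.1% and 30.2% of the summed density of the 12 shared regions in fasted replicates 1 to 3, and 32.9%, 37.1% and 33.7% in fed replicates 1 to 3. The share was thus lower in each fasted library than in each fed one, while the density of the region itself overlapped between the groups.

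The site for which the locus was chosen lies at -48.5 kb (136115595 to 136116965), 47.1 kb before the strongest region. Its density was 51.1, 63.1 and 33.6 in fasted replicates 1 to 3, or 180, 320 and 111 tags, and no fed library had a hotspot there. The fasted mean was 49.3 ± 14.9 (SD, n = 3), and fasted replicates 2 and 3 stood furthest apart. The authors' z-scores were 41.6, 63.7 and 24.1 in the same order. The hotspots began within 4 bp of each other in the 3 fasted libraries and shared 1211 bp.

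Most sites with such calls were far weaker. Among the 879 regions called in all 3 fasted and no fed libraries, this one ranked 2nd by mean density, against a median of 8.78. The nearest in density were a region of chromosome 2 (160630607 to 160631507), with a mean of 42.6 ± 4.7 in the fasted libraries, a region of chromosome 1 (40189406 to 40190527) with 41.9 ± 19.8, and a region of chromosome 7 (148609342 to 148610410) with 39.1 ± 6.5 (SD, n = 3 each). Of the 2124 regions called in every fasted library at a mean density of 44.3 to 54.2, 2118 were called in all 3 fed libraries, 5 in 2 of them and 1 in none, which is this site. Its own place there is built in, since the range was set around its mean and it was chosen for its calls. The median fed mean over those 2118 regions was 46.7, and the lowest was 7.3.

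**Figure D2:**
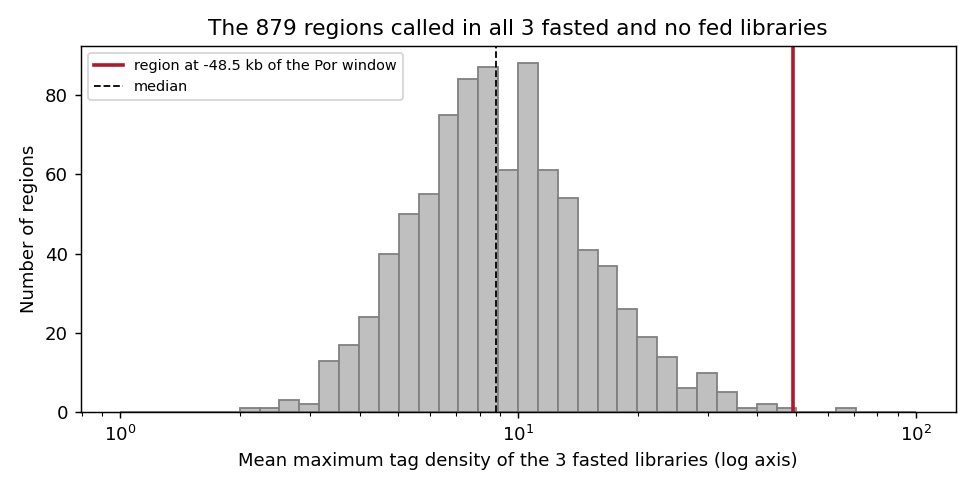
Histogram of the mean maximum tag density of the 3 fasted libraries (log axis) over the 879 regions called in all 3 fasted and no fed libraries, with the number of regions on the vertical axis. The red line marks the region at -48.5 kb (mean 49.3), far to the right of the dashed median (8.78).

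How open the site was in fed livers is not known from the lists. The weakest hotspots that fed replicates 1 to 3 called in the window reached densities of 13.6, 8.6 and 9.6, or 37, 23 and 42 tags. The fed hotspots nearest to the site began 1630, 1632 and 1583 bp after its end and belong to the next region, at -45.8 kb. Leaving out any library, merging hotspots within 150 bp, asking for at least 50% coverage of a region, or shortening every list to its 49595 strongest hotspots gave no fed hotspot at the site. None of these settings could have added one, since the nearest region of any library lay 1513 bp away. The absence of a fed hotspot under them was therefore fixed in advance.

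The next regions on the same side, at -45.8 and -42.7 kb, had higher densities in the fasted libraries than in the fed libraries that called them. The region at -45.8 kb (136118479 to 136119503) had densities of 39.4, 47.8 and 36.6 in fasted replicates 1 to 3, and 26.1, 21.0 and 25.4 in fed replicates 1 to 3. The groups did not overlap, with means of 41.3 ± 5.79 in fasted and 24.2 ± 2.78 in fed livers (SD, n = 3 each). The log2 fold change there was 0.82 (SE 0.20, limma adjusted p = 0.0058). The region at -42.7 kb (136121613 to 136122591) had 36.0, 51.5 and 42.4 in the fasted libraries, against 16.2 and 11.9 in fed replicates 1 and 3 and no hotspot in fed replicate 2. Its missing call kept it out of the fit of all 6 libraries. It could be fitted only without fed replicate 2, so that fit was picked by the region's own calls and rests on 2 fed libraries. The region's log2 fold change there was 1.65 (SE 0.24, limma adjusted p = 3.9e-05), which does not compare with the fits of all 6. Its hotspots covered 777, 979 and 778 bp in the fasted libraries, against 450 and 317 bp in the 2 fed libraries that called it.

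The outermost upstream region, at -56.2 kb (136108156 to 136109032), lies 6562 bp before the fasted-only site and did not pass. Its density was 29.2, 34.9 and 24.5 in fasted replicates 1 to 3, and 18.4, 26.6 and 29.5 in fed replicates 1 to 3. The groups overlapped, and the log2 fold change was 0.33 (95% interval -0.14 to 0.80).

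Over the 12 regions called in all 6 libraries, 6 were higher in fasted livers, 1 was lower and 5 did not pass (limma, Benjamini-Hochberg adjustment over all 37044 shared regions, threshold 0.05). Over all shared regions 7.89% passed as higher and 7.84% as lower, or 2921 and 2905 regions, and without centring 1946 passed as higher and 3189 as lower. The adjusted p-values of the 7 that passed ran from 2.1e-05 to 0.019. The median log2 fold change was 0.47 over the 12 and 0.03 over all shared regions. Of the 12, 10 were above 0, as were at least 50% of all shared regions, given their median. The lowest of the 10, 0.06 at 37.9 kb, was above 53.2% of all shared regions. The region at 0.0 kb was below 0 with quantile normalization. That at 37.9 kb was below 0 without centring, with quantile normalization and in the upper 50% of regions by density. It was also below 0 without fasted replicate 1 or fed replicate 2. On the deposited densities every fasted library stood above every fed one at 6 of the 12 (11.0% of all shared regions) and below every fed one at 1 (17.1%). On the centred densities, which the fit used, the same 6 and 1 stood apart, against 16.8% and 14.6% of all shared regions. The count of 6 rested in part on fed replicate 2, the shallowest library: without it, 2 of these 12 passed as higher, those at -45.8 and 54.3 kb. The log2 fold changes of the 4 whose calls were lost then ran from 0.40 to 0.56, against 0.52 to 0.67 with all 6 libraries. The count of higher regions was 4 without centring and 4 without a variance trend. It was 5 with quantile normalization and 5 without fasted replicate 1.

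**Figure D3:**
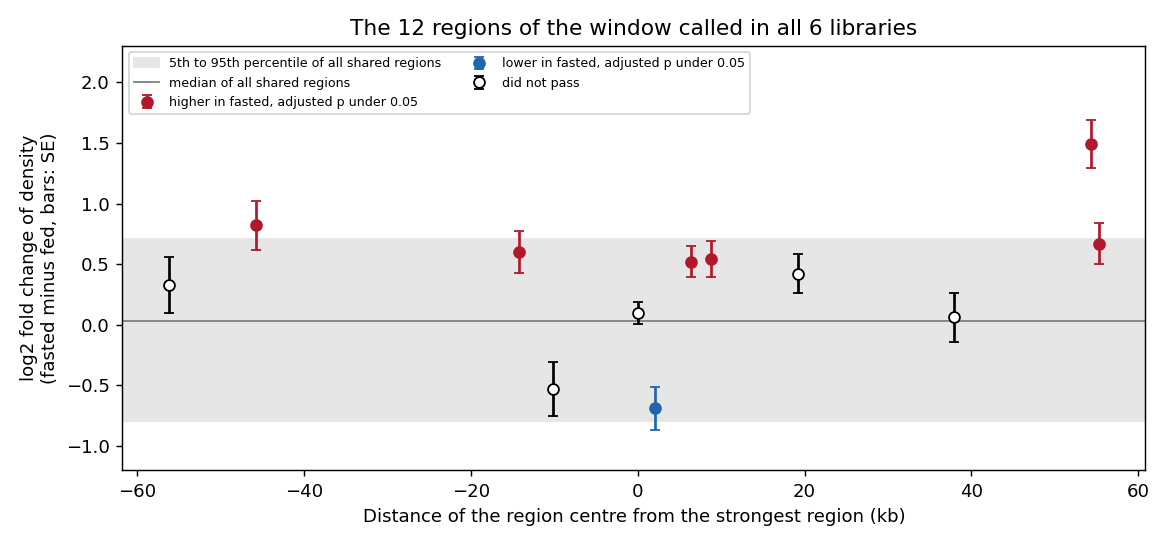
Log2 fold change of density (fasted minus fed, bars show the SE) of the 12 shared regions against the distance from the strongest region in kb; the grey band spans the 5th to 95th percentile of all shared regions (-0.79 to 0.71) and the grey line is their median. The regions at -45.8 and 54.3 kb lie above the band, the region at 0.0 kb near the line, and the regions at -10.1 and 2.1 kb below 0.

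The rise at the far downstream end was the greatest of the 12. The region at 54.3 kb (136218557 to 136219483) had densities of 65.3, 59.4 and 80.2 in fasted replicates 1 to 3, and 28.3, 17.2 and 30.9 in fed replicates 1 to 3. The lowest fasted library lay well above the highest fed one, and the means were 68.3 ± 10.7 in fasted and 25.5 ± 7.26 in fed livers (SD, n = 3 each). The log2 fold change was 1.49 (SE 0.20, limma adjusted p = 2.1e-05), above that of 99.6% of all shared regions. Its hotspots covered 893, 910 and 912 bp in fasted and 607, 584 and 838 bp in fed replicates 1 to 3.

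The region at 55.3 kb (136219606 to 136220616) begins 122 bp further on and also rose, by less, a difference that was not tested. It had densities of 48.5, 48.7 and 58.4 in fasted replicates 1 to 3, and 37.9, 28.5 and 36.2 in fed replicates 1 to 3. The groups did not overlap, and the log2 fold change was 0.67 (SE 0.17, limma adjusted p = 0.011). Without fed replicate 2 the log2 fold change was 0.56 and the adjusted p was 0.068 (range over the alternatives 0.0054 to 0.068). Merging hotspots within 150 bp joins both regions into 1.

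Near the strongest region the changes ran in both directions within a few kb. The region at 2.1 kb (136165940 to 136167783), 474 bp after the strongest one, was lower in fasted livers. Its density was 37.4, 22.7 and 29.97 in fasted replicates 1 to 3, and 56.6, 46.5 and 49.0 in fed replicates 1 to 3. The groups did not overlap, and the log2 fold change was -0.69 (SE 0.18, limma adjusted p = 0.013). Without fed replicate 1 the log2 fold change was -0.63 and the adjusted p was 0.063 (range over the alternatives 0.0014 to 0.063). In fed replicate 1 this region held 2 separate hotspots, where each other library had 1.

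The region at 6.4 kb (136170483 to 136171843) was the second strongest of the window and was higher in fasted livers. Its density was 142.4, 118.8 and 163.2 in fasted replicates 1 to 3, and 116.9, 89.9 and 102.1 in fed replicates 1 to 3. The margin was narrow, since fasted replicate 2 stood just above fed replicate 1. The log2 fold change was 0.52 (SE 0.13, limma adjusted p = 0.0079). Without a variance trend the adjusted p was 0.059 and without fed replicate 2 it was 0.063 (range over the alternatives 0.0032 to 0.063), with log2 fold changes of 0.52 and 0.44.

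The region at 8.8 kb (136172896 to 136174176) had densities of 93.6, 79.1 and 95.05 in fasted replicates 1 to 3, and 71.0, 52.1 and 71.6 in fed replicates 1 to 3. The groups did not overlap, and the log2 fold change was 0.54 (SE 0.15, limma adjusted p = 0.019). This call was the least stable of the 7. It was lost with no centring, with quantile normalization, without a variance trend, and without fasted replicate 1 or fed replicate 2 (adjusted p over the alternatives 0.0074 to 0.14), while the log2 fold change stayed between 0.40 and 0.64 over the alternatives.

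On the upstream side of the strongest region, at -14.2 kb (136149899 to 136151301), densities were 61.0, 71.0 and 69.3 in fasted replicates 1 to 3, and 54.1, 38.2 and 47.6 in fed replicates 1 to 3. The groups did not overlap, and the log2 fold change was 0.60 (SE 0.17, limma adjusted p = 0.017). The call was lost with no centring, with depth as a covariate and without fed replicate 2 (adjusted p over the alternatives 0.017 to 0.11). Those fits gave log2 fold changes of 0.53, 0.51 and 0.48.

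**Figure D4:**
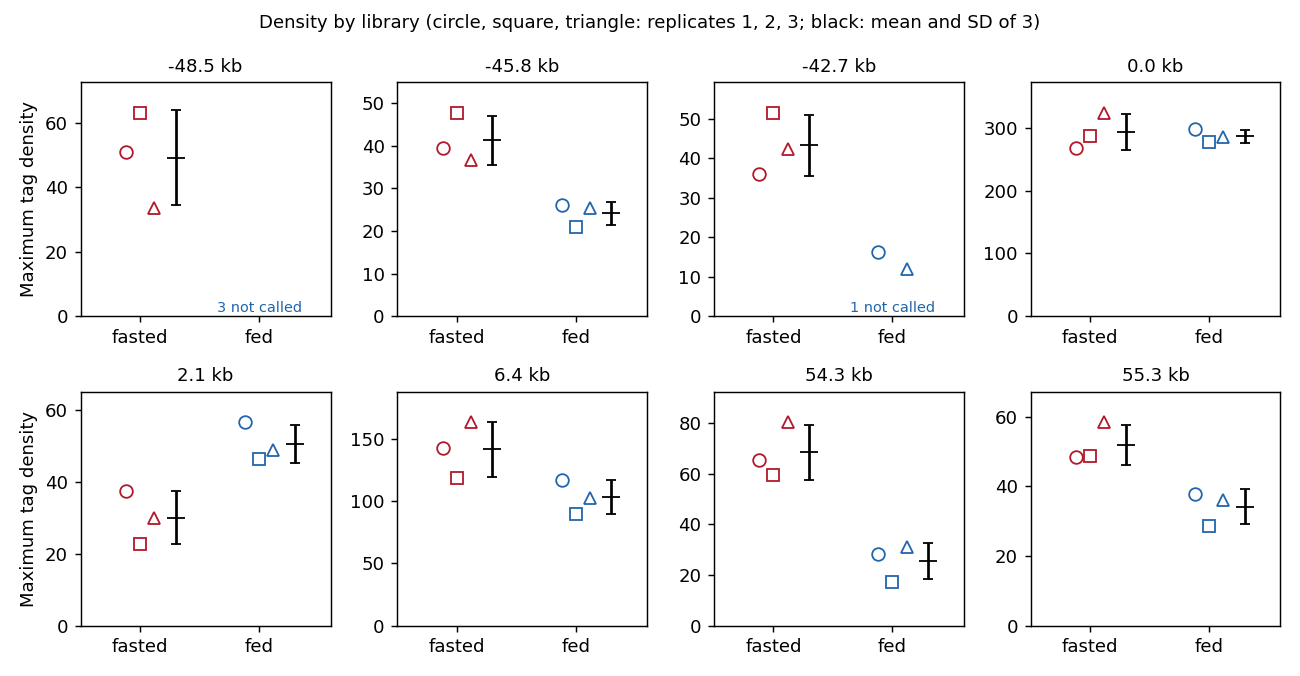
Maximum tag density by library for 8 regions, named by their distance from the strongest region; circles, squares and triangles are replicates 1, 2 and 3, black bars are the mean and SD of 3 libraries, and libraries without a hotspot are counted at the foot of the panel. The fasted symbols lie above the fed ones at -45.8, -42.7, 6.4, 54.3 and 55.3 kb and below them at 2.1 kb, and the groups overlap at 0.0 kb.

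The neighbour at -10.1 kb (136154185 to 136155183), 2883 bp further on, did not pass. Its density was 28.4, 54.9 and 37.8 in fasted replicates 1 to 3, and 72.1, 49.1 and 60.4 in fed replicates 1 to 3. Fasted replicate 2 stood above fed replicate 2, so the groups overlapped. The log2 fold change was -0.53 (SE 0.22, limma adjusted p = 0.11), and it passed without fasted replicate 2 (-0.83, adjusted p = 0.0026) and with depth as a covariate (adjusted p = 0.019, range over the alternatives 0.0026 to 0.47).

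The region at 19.2 kb (136183334 to 136184575), the third strongest, had densities of 89.9, 64.5 and 109.6 in fasted replicates 1 to 3, and 76.9, 70.1 and 57.2 in fed replicates 1 to 3. Here fasted replicate 2 lay among the fed libraries. The log2 fold change was 0.42 (SE 0.16, limma adjusted p = 0.087), and the region passed without fasted replicate 2 (adjusted p = 0.013) and with depth as a covariate (0.0091, range over the alternatives 0.0091 to 0.31). The region at 37.9 kb (136202209 to 136203149) had means of 43.0 ± 9.61 in fasted and 43.8 ± 11.6 in fed livers (SD, n = 3 each), which differed by less than the spread between replicates (log2 fold change 0.06, 95% interval -0.36 to 0.48).

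The remaining regions were weak. At -5.9 kb (136158213 to 136159424) densities were 21.3, 23.9 and 19.7 in the fasted libraries, against 8.6 and 13.7 in fed replicates 2 and 3 and no hotspot in fed replicate 1. Without fed replicate 1 the log2 fold change there was 0.97 (SE 0.25, limma adjusted p = 0.017). That fit, too, was picked by the region's missing call and rests on fed replicates 2 and 3 only. At 47.0 kb all 3 fasted libraries had a hotspot, at 13.3, 18.2 and 12.7, and of the fed libraries fed replicate 3 had one, at 9.6. At 45.9 kb fasted replicates 1 and 2 stood at 13.3 and 11.2, with no fed hotspot. The reverse held at -21.7 kb, where fed replicates 1 and 3 stood at 13.6 and 13.3 with no fasted hotspot. At 22.0 kb fasted replicate 2 (13.6) and fed replicate 3 (10.1) had a hotspot.

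Of the 5 regions called in a single library, 4 came from fasted replicate 2 (at -32.7, 3.5, 5.0 and 13.9 kb) and 1 from fed replicate 3 (at 32.3 kb). These are the deepest library of each group. Such regions reached 63 to 78 tags and made up 19.5% of all regions in the series. Without fasted replicate 2 the series held 69453 regions in place of 75169, and without fed replicate 3 it held 71015. Leaving out any other library gave 74258 to 74765. How many single-library regions each library gave over the series was not counted.

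Beyond the window edges the nearest regions lie 45.0 kb before it (136044406 to 136044971) and 23.8 kb after it (136253841 to 136255008). The first had a hotspot in fed replicates 2 and 3 only, at 6.7 and 7.6. The second had densities of 133.6, 145.0 and 175.3 in fasted replicates 1 to 3, and 142.7, 158.5 and 145.6 in fed replicates 1 to 3, and the groups overlapped. The members nearest the edges lie 18.2 and 9.4 kb inside.

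The 12 shared regions were stronger than shared regions at large, with a median of their mean densities of 48.7 against 23.7, and had a median width of 1133.5 bp against 1054 bp. Without the strongest region their summed density was 688.0, 635.4 and 747.4 in fasted replicates 1 to 3, and 608.7, 469.5 and 560.5 in fed replicates 1 to 3. The groups did not overlap in this sum, while the medians over all shared regions were 23.0, 20.9 and 24.5 in fasted and 25.01, 23.6 and 23.3 in fed replicates 1 to 3. The shared regions whose densities varied over the 6 libraries most like those of the region at 0.0 kb were on chromosome 2 (76485255 to 76487278), chromosome X (82818499 to 82820114) and chromosome 11 (69834144 to 69835655), with Euclidean distances of 0.052, 0.056 and 0.059 between centred log2 profiles. Their log2 fold changes were 0.13, 0.08 and 0.13.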

How the data were processed

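Each library has its own hotspot list on build mm9, so hotspots were called per sample. The submitters' processing notes name CASAVA 1.8. For the aligner and the caller the sources used here give no name. Per the file headers, each hotspot carries a maximum and an average tag density, which are a coverage signal. A z-score, as deposited, is the caller's score of a hotspot against a background that is not stated. The p-value that the authors deposited (at most 4.5e-13) entered no comparison.

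Hotspots overlapping by at least 1 bp on chromosomes 1 to 19 and X were merged, and a region's density in a library is the highest maximum there. Regions called in all 6 libraries were fitted in R 4.3.3 with limma 3.58.1 (moderated variances with a trend) on log2(density + 1), centred on the library median, with Benjamini-Hochberg adjustment over all of them. The code of the fit was run on simulated normal values with the same spread for all regions. This differs from the data and bears on the code only, not on these results. No count model was used, since heights are not counts per region. Intervals are 95% intervals from the fit. Tables used Python 3.11.15, numpy 2.4.6 and pandas 2.3.3, and plots matplotlib 3.10.9.

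The window, its regions and the tests were chosen with earlier results of these data known. All regions of the window are reported. Values by library are given for the fasted-only site, the 6 strongest regions and every region past the threshold, and for the others chosen after their values were seen. Gene lists were planned for an mm9 annotation and were not used here.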

Additional observations from a re-analysis of the deposited data

How the results depend on the processing

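Under the 16 alternatives to the fit, 100 of 112 values of the 7 regions that passed kept their direction and call, and none changed sign. The regions at -45.8 kb (0.64 to 0.95) and 54.3 kb (1.21 to 1.67) passed in all of them. Signs turned at 0.0 kb with quantile normalization (-0.08) and at 37.9 kb with no centring (-0.01), quantile normalization (-0.01), the upper 50% of regions by density (-0.02), without fasted replicate 1 (-0.08) and without fed replicate 2 (-0.16; 0.21 without fed replicate 3); neither region passed in any fit. Leaving out each replicate gave 2 (without fed replicate 2) to 7 of the 12 shared regions of the window higher and 0 (without fed replicate 1) to 2 lower, and depth as a covariate gave 2 lower. No centring and no variance trend each gave 4 of these 12 higher, and quantile normalization gave 5. Over all shared regions, 2921 were higher and 2905 lower; no centring gave 1946 higher and 3189 lower, the upper 50% gave 1401 higher and 1540 lower, where fewer regions were tested, and leaving out each replicate gave 1976 to 3212 higher and 2021 to 2738 lower. The replicate block gave 2535 and 2539, and 6 and 1 among those 12, and it changed no call in the window. Libraries with the same number did not deviate alike (correlations -0.067, -0.030 and -0.167). This cannot show whether they were handled together, which the labels do not say. Regions called in all fasted and no fed libraries numbered 1017 to 2024 without each replicate. Where no construction is named, the cause was not tested. Weak hotspots rest on few tags, and a missing call sets no upper bound on density.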

Other observations

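The fasted libraries differed among themselves along the locus in a way that turned at the strongest region. Fasted replicate 2 was the highest fasted library at 7 of the 7 regions before it that all fasted libraries called, and the lowest at 6 of the 8 after it. These are deposited densities without centring. Over all shared regions fasted replicate 2 also had the lowest fasted median, 20.9 against 23.0 and 24.5 in fasted replicates 1 and 3. The fed medians were 25.01, 23.6 and 23.3 in fed replicates 1 to 3. How often such an order occurs over all regions was not counted. The summed density of the shared regions before the strongest one was 158.0, 208.6 and 168.3 in fasted replicates 1 to 3, and 170.6, 134.9 and 163.0 in fed replicates 1 to 3. After it the sums were 530.0, 426.8 and 579.1 in fasted and 438.0, 334.6 and 397.5 in fed replicates 1 to 3. Before the strongest region the groups overlapped in this sum, and after it fasted replicate 2 lay below fed replicate 1. Fed replicate 2, in turn, was the lowest fed library at 3 of 4 regions before the strongest one and 6 of 7 after it. Fasted replicate 2 is the deepest library (1.90 times fed replicate 2) and fed replicate 2 the shallowest, and the part of depth in these values was not tested. The pattern was noticed after the values were seen.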
